A study of Mus musculus with 6 samples.

Results

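The genes described here encode 10 proteins that take actin filaments apart and recycle their subunits: Cfl1, Cfl2, Dstn, Wdr1, Gsn, Pfn1, Cap1, Coro1a, Twf1 and Tmsb4x. They were chosen by name, with the difference between SRF-null and control arrays already known, and every probe set whose platform annotation named only 1 of them was taken. This gave 22 probe sets for 9 of the 10 genes, out of 45037 probe sets and 18193 genes on the arrays. Twf1 had 0 probe sets of its own, since the 3 that name it also name a second gene, Gm4887, and no value is given for it. Because the choice used the comparison of genotypes, the members' differences are described without a test.

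Actin filaments grow at one end and shrink at the other, and cells keep this treadmill running by cutting old filaments and recharging the released monomers. Proteins of the cofilin family bind and sever older filament segments, with WD repeat and coronin proteins as helpers, and gelsolin severs and caps filaments in response to calcium. Profilin, cyclase-associated protein, twinfilin and thymosin beta-4 then handle the monomers. The transcription factor SRF acts on many actin cytoskeleton genes through a DNA element called the CArG box.

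RNA came from LSK cells of mouse bone marrow, the fraction negative for lineage markers and positive for Sca1 and c-Kit, which contains the hematopoietic stem and multipotent progenitor cells. The control group was Srf+/+;Mx1-Cre and the SRF-null group Srf flx/flx;Mx1-Cre, each of 3 samples on the C57BL/6 background. Both genotypes thus carried Mx1-Cre, a recombinase transgene switched on by interferon and not restricted to LSK cells. Both received pIpC, which induces interferon, as 3 intraperitoneal injections of 200 µg with 2 days between them from an age of 6 weeks, and were examined 35 days after the last injection. Each sample was sorted from pooled animals, the number per pool is unstated, and differences between samples may therefore be partly technical.

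All values are normalized log2 signals, on which the lowest possible value is 4, the log2 of the offset of 16 added to each intensity. Differences are SRF-null minus control with the limma standard error (SE) of a fit that does not pair arrays by replicate number. Group values are means ± SD over n = 3 arrays. A signal depends on the probes, so levels are compared between arrays and never between probe sets. Whether the brightest signals were compressed at the top of the scale was not tested. In a bulk sample, less of a transcript per cell and fewer cells that make it cannot be told apart.

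The targeted gene was lower on its brighter probe set (1418255_s_at), at 13.04, 13.00 and 13.04 on the control arrays and 12.58, 12.43 and 12.80 on the SRF-null arrays. Its other probe set (1418256_at) overlapped, at 9.02, 9.58 and 10.20 against 9.37, 9.62 and 10.12, and the sources used here do not say whether either lies in the deleted part. The array medians of the deposited intensities were 200.4 to 292.2 before normalization. The LSK markers Kit (14.81 to 15.44), Cd34 (16.72 to 16.93) and Flt3 (15.10 to 15.69) were well above the bottom of the scale on all 6 arrays. Genes listed here as markers of other cell types ranged from dim to bright. The myeloid integrin gene Itgam (5.47 to 6.18) and the T cell gene Cd3e (4.10 to 7.54) were dim. Thy1 (10.51 to 12.72), Csf1r (12.11 to 14.63) and Lyz2 (15.92 to 16.37) were bright, and which cells gave these signals was not tested. Control replicate 2 lacked Y-linked transcripts (Kdm5d at 4.0 against 10.54 to 11.98 on the other arrays) and SRF-null replicate 1 lacked Xist (5.03 against 15.13 to 16.24). These samples thus differed from the rest in sex-linked transcripts, since the other arrays held both kinds, and results are also given without them. The 3′ minus 5′ signal of the Actb control probe sets, a common measure of RNA quality that grows as 5′ signal is lost, was 1.18, 1.45 and 1.35 on the control and 1.00, 1.51 and 0.93 on the SRF-null arrays. The groups overlapped in this measure (exact permutation test on both sides, p = 0.4, where the smallest possible p is 0.1).

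Across all probe sets limma called 0 of 45037 at an adjusted p of 0.05, and 1975 (4.39%) had an unadjusted p under 0.05. With a replicate block the call count was again 0, and 3189 probe sets (7.08%) had an unadjusted p under 0.05. None of the 22 member probe sets was therefore called, and the words higher and lower below refer to measured means. Of the 22 member probe sets 20 had a higher and 2 a lower SRF-null mean, and 50% of all probe sets had a higher one. The median difference was 0.19 over the member probe sets and 0.00 over all probe sets. The member median was 0.31 without control replicate 1, 0.11 without control replicate 2, 0.09 without control replicate 2 and SRF-null replicate 1, and 0.08 over the 9 genes with the brightest probe set of each. In 7 of the 22 the arrays of the genotypes did not overlap, where this held for 9.24% of all probe sets (6 with SRF-null above, against 4.74%, and 1 below, against 4.5%), and these 7 belonged to only 3 genes: Wdr1 and Coro1a, higher on all 3 of their probe sets each, and Dstn, lower on its 1 probe set. Under median centring 3 of the 22 did not overlap (4.94% of all probe sets), without control replicate 1 it was 12 (24.9%) and without SRF-null replicate 2 it was 11 (17.3%). The members were picked from this comparison, so nothing is read from these shares.

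The promoters of Wdr1 and Dstn are shown because these members differed in opposite directions and each holds a near match to the CArG box, the element SRF binds. RefSeq gave windows for all 10 members (13 windows of 300 bases, build GRCm38.p6, from 250 bases before to 50 after an annotated transcript start), and the sequences run 5′ to 3′ on the gene's strand with matches at 1 mismatch in capitals. The Wdr1 window is chr5:38561650-38561949 on the minus strand and the Dstn window chr2:143915081-143915380 on the plus strand.
Wdr1: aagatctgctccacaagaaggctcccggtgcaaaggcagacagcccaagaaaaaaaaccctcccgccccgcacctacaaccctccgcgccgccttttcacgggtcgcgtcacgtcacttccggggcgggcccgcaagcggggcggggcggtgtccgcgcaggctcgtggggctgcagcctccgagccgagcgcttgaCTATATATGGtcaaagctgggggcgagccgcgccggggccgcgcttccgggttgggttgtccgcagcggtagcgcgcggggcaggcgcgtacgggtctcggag
Dstn: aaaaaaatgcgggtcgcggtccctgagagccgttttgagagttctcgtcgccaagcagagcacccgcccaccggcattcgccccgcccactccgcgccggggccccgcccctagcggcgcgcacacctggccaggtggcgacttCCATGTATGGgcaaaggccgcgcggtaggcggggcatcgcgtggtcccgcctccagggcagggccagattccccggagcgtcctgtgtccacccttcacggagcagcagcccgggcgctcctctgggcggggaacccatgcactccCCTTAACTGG
The match in Wdr1, CTATATATGG, began 53 bases before the start. Dstn held CCATGTATGG, which began 106 bases before the start, and CCTTAACTGG, which began 40 bases after it.

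An exact CArG box was in 0 of the 13 member windows and in 1.63% of all 32851 promoter windows of this length. With 1 mismatch allowed it was in 4 of the 13 windows, those of Wdr1, Dstn, Cfl1 (CGTTTTTTGG) and 1 of the 3 Gsn windows (CCTTCTATGG), and in 21.1% of all windows. The box is its own reverse complement, so both strands were covered. Both Coro1a windows had no such match. The sequence TATAAA, searched on both strands, was in 0 of the 13 windows and in 13.6% of all windows. Members with a near match thus included a gene that was higher (Wdr1), a gene that was lower (Dstn) and a gene with almost equal means (Cfl1). A match in these letters is a description of the window and not a measured binding site.

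Wdr1, which encodes a WD repeat protein that speeds the disassembly of filaments coated with cofilin, was higher in SRF-null cells on each of its 3 probe sets. On the brightest (1450851_at) the control arrays read 13.93, 13.53 and 13.99 and the SRF-null arrays 14.40, 14.39 and 14.52. The lowest SRF-null array lay above the highest control array, and the difference was 0.62 (SE 0.17), or 1.54-fold. In the deposited intensities, before normalization, the same probe set ran from 12049 to 16471 in control and from 20736 to 23407 in SRF-null samples. Probe set 1437591_a_at read 12.45, 12.28 and 12.92 against 13.63, 13.28 and 14.16, which is the largest difference among the 22 member probe sets at 1.14 (SE 0.28, 2.20-fold). Probe set 1423054_at read 11.77, 11.85 and 12.50 against 12.85, 12.68 and 13.16 (0.86, SE 0.25, 1.81-fold).

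The 3 Wdr1 probe sets did not rank the arrays alike in detail. Control replicate 3 was the highest control array on all of them, by a small margin on the brightest and a larger one on the others, and SRF-null replicate 3 was the highest of all arrays on each. Within number pairs the differences were 0.47, 0.86 and 0.53 on the brightest probe set. They were 1.18, 1.00 and 1.24 on 1437591_a_at and 1.09, 0.83 and 0.66 on 1423054_at. Each was above 0, which follows from groups that do not overlap. SRF-null replicate 3 also had the smallest 3′ minus 5′ Actb value, and SRF-null replicate 2 had the largest of all 6 arrays. On each Wdr1 probe set SRF-null replicate 2 was the lowest SRF-null array. The part of RNA quality in the Wdr1 difference was not tested. Without control replicate 2 and SRF-null replicate 1 the differences were 0.49, 1.03 and 0.79. Under median centring, in which each array is shifted to a common median, they were 0.57, 1.09 and 0.79, but the genotypes then overlapped on 1450851_at and 1423054_at.

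**Figure D1:**
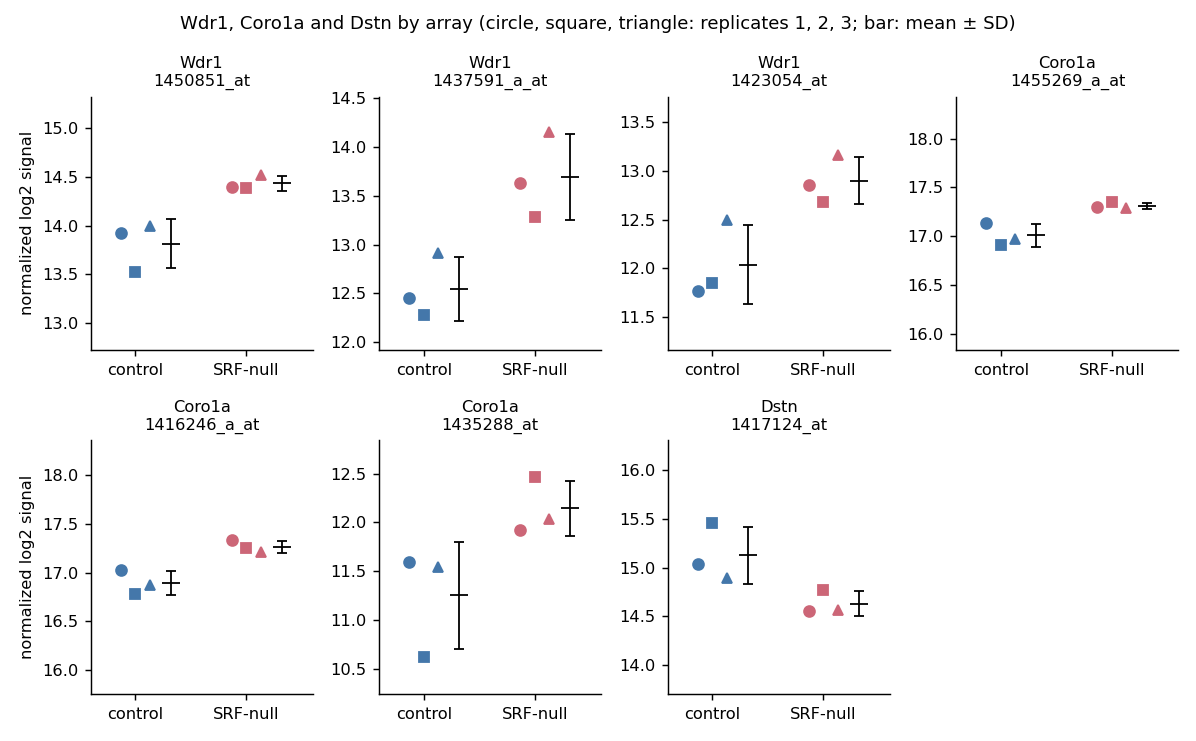
Normalized log2 signal (vertical axis, the same span in each panel) of the 7 probe sets whose genotypes did not overlap, with 1 point per array and the mean ± SD of each group (n = 3). All SRF-null points lie above the control points for Wdr1 and Coro1a and below them for Dstn.

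In the cofilin family Dstn was lower, while the differences of Cfl1 and of the brighter Cfl2 probe sets were small. Destrin, the Dstn product, is a close relative of cofilin that severs filaments and binds monomers. Its probe set (1417124_at) read 15.04, 15.45 and 14.89 on the control arrays and 14.55, 14.77 and 14.56 on the SRF-null arrays. The highest SRF-null array lay below the lowest control array, and the difference was −0.50 (SE 0.19), or 1.41-fold. Control replicate 2 was the highest of the 6, and without it and SRF-null replicate 1 the difference was −0.29. Leaving out arrays can hardly make separate groups overlap, so nothing is read from their staying apart in that fit. Under median centring the groups overlapped, with a difference of −0.53. The differences within number pairs were −0.48, −0.68 and −0.33.

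Cfl1, the cofilin of non-muscle cells, had nearly equal means on 2 bright probe sets, for which compression at the top of the scale was not tested. Probe set 1455138_x_at read 17.84, 17.70 and 17.73 against 17.76, 17.77 and 17.76, a difference of 0.01 (SE 0.12). Probe set 1448346_at read 16.69, 16.56 and 16.53 against 16.69, 16.39 and 16.75 (0.02, SE 0.15). The SRF-null arrays lay almost on top of each other on the first probe set and had an SD of 0.20 on the second, so their spread differed between probe sets of 1 gene. The ending _x_at marks a probe set with probes that can match other transcripts, and 5 of the 22 member probe sets carry it, 1 for Cfl1 and 4 for Gsn.

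Cfl2, the cofilin known best from muscle, was well above the bottom of the scale on 2 of its 3 probe sets, and the genotypes overlapped on all 3. The brightest (1418067_at) read 14.15, 14.12 and 14.07 against 14.06, 14.29 and 14.14 (0.05, SE 0.12). Probe set 1418066_at read 12.44, 12.16 and 11.78 against 12.32, 12.34 and 12.22 (0.16, SE 0.19), with its widest spread among the controls. Probe set 1431432_at lay near the bottom of the scale, at 5.64, 5.57 and 5.85 against 5.85, 6.09 and 6.12 (0.34, SE 0.15). On it the highest control and the lowest SRF-null array read the same to 2 decimals, and the deposited intensities were only 29.7 to 52.5.

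Coro1a, which encodes coronin-1A, an actin-binding protein of leukocytes that promotes filament disassembly together with cofilin, was higher in SRF-null cells on all 3 probe sets. The brightest (1455269_a_at) read 17.14, 16.91 and 16.97 on the control arrays and 17.30, 17.35 and 17.29 on the SRF-null arrays, a difference of 0.31 (SE 0.12), or 1.24-fold. Probe set 1416246_a_at read 17.02, 16.78 and 16.88 against 17.33, 17.25 and 17.21 (0.37, SE 0.13, 1.29-fold). On these bright probe sets the SRF-null arrays were close together, with SDs of 0.03 and 0.06. The dimmer 1435288_at read 11.59, 10.62 and 11.54 against 11.93, 12.46 and 12.04 (0.89, SE 0.31, 1.86-fold). Its size rested partly on control replicate 2, the lowest of the 6. Without that array the difference was 0.57, and without it and SRF-null replicate 1 it was 0.69, while the other probe sets gave 0.27 and 0.29. Under median centring the genotypes overlapped on 1455269_a_at (0.28) and did not on the other probe sets (0.36 and 0.85).

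Most macrophage, T cell and NK cell marker genes had higher means in SRF-null samples, and these mature leukocytes also express Coro1a. Higher means were also the majority in every other cell type list except that of LSK cells. Over all genes 51.4% had a lower SRF-null mean, and in 10.6% the groups did not overlap (5.16% with SRF-null above). Of 12 measured T and NK cell markers 11 were higher, and their summed log2 signal ran from 76.8 to 83.5 on the control and from 83.2 to 98.3 on the SRF-null arrays. The T and NK cell markers without overlap were 4 of 12, all with SRF-null above: Cd7 (1.74, SE 0.28), Klrd1 (1.42, SE 0.39), Cd4 (1.11, SE 0.34) and Cd247 (0.68, SE 0.18). Among the defining T cell markers Cd3g stayed under 5 on all 6 arrays, Cd3d lay between 4.24 and 5.05, and Cd3e read 5.47, 4.10 and 5.58 against 4.38, 7.54 and 7.51. Of 15 monocyte and macrophage markers 13 were higher, with summed signals of 146.7 to 154.1 and 153.6 to 171.7, and 3 did not overlap, again with SRF-null above: Mrc1 (2.08, SE 0.55), C1qa (1.70, SE 0.56) and Ctss (0.75, SE 0.19). The macrophage gene Adgre1 read 6.25, 7.04 and 7.59 against 7.26, 8.85 and 8.98. On SRF-null replicates 1, 2 and 3 the T and NK cell means were 6.93, 7.63 and 8.19, with a highest control mean of 6.96. The monocyte and macrophage means were 10.24, 10.97 and 11.45, with a highest control mean of 10.28. On the same arrays Coro1a read 17.30, 17.35 and 17.29 on 1455269_a_at and 17.33, 17.25 and 17.21 on 1416246_a_at. The dimmer 1435288_at read 11.93, 12.46 and 12.04. The ranges of both summed signals overlapped slightly between genotypes. Granulocyte markers were higher for 6 of 11 and B cell markers for 7 of 9, and the ranges of their array means overlapped. Megakaryocyte and platelet markers were higher for 8 of 11, with summed signals of 106.8 to 118.4 and 109.3 to 118.8. Erythroid markers were higher for 8 of 10 (median difference 0.03), stromal and endothelial markers for 9 of 14 (0.10) and LSK markers for 3 of 7 (−0.15). In these 3 lists the groups did not overlap for 1, 3 and 0 genes. The median difference was 0.80 for the T and NK cell list and 0.62 for the monocyte and macrophage list. The part of other cell types in the differences of Coro1a, Wdr1 and Dstn was not tested.

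**Figure D2:**
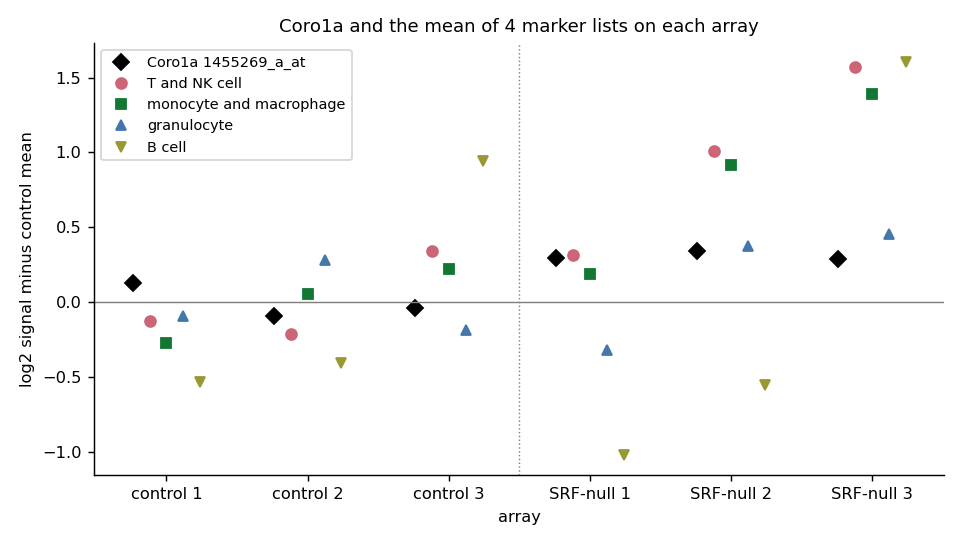
Each point is the log2 signal on 1 array minus the mean of the control arrays, for Coro1a (probe set 1455269_a_at) and for the mean over 4 marker lists. This probe set takes similar values on the 3 SRF-null arrays, and the T and NK cell and the monocyte and macrophage means are highest on SRF-null replicate 3. The dimmer Coro1a probe set 1435288_at, not drawn, read 11.93, 12.46 and 12.04 on SRF-null replicates 1, 2 and 3. The part of other cell types in Coro1a was not tested.

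Gsn, which encodes gelsolin, showed small differences in both directions over 6 probe sets, and the genotypes overlapped on each. The brightest (1436991_x_at) read 13.25, 12.70 and 12.70 against 13.30, 13.56 and 12.85 (0.35, SE 0.25), and its difference came mostly from number pair 2, which differed by 0.86 where the others differed by 0.05 and 0.15. The 3 other probe sets with the _x_at ending differed by 0.19, 0.20 and 0.05. The probe set without that ending that was well above the bottom of the scale (1415812_at) read 11.16, 10.76 and 10.94 against 11.12, 10.58 and 10.91, a difference of −0.09 (SE 0.19). Probe set 1456568_at was between 4.18 and 4.6 on all arrays, at the bottom of the scale, and carries no information on a difference. Without control replicate 2 and SRF-null replicate 1 the difference on 1415812_at was −0.31 and that on 1436991_x_at 0.23, so the probe sets of this gene do not give it 1 direction.

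For the genes of monomer-handling proteins the arrays of the genotypes overlapped, and for Pfn1 and Cap1 this rested on SRF-null replicate 2. Pfn1 encodes profilin, which recharges actin monomers and delivers them to growing ends, and its probe set (1449018_at) read 16.22, 15.96 and 16.18 against 16.53, 15.95 and 16.51 (0.21, SE 0.20). SRF-null replicates 1 and 3 were above all controls, and replicate 2 was the lowest array of all. Cap1 encodes the cyclase-associated protein that helps take cofilin off monomers. Its brighter probe set (1417461_at) read 13.30, 12.80 and 13.23 against 13.34, 12.49 and 13.75 (0.08, SE 0.35), and the dimmer 1417462_at read 10.53, 9.98 and 10.80 against 11.00, 10.24 and 11.75 (0.56, SE 0.42). Without SRF-null replicate 2 the groups did not overlap on Pfn1 (0.41) or on either Cap1 probe set (0.43 and 0.93). Without SRF-null replicate 3 the Cap1 differences were −0.19 and 0.18. Pfn1 differed by 0.04 once control replicate 2 and SRF-null replicate 1 were left out.

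For Cap1 the spread among SRF-null arrays moved with the RNA quality measure. On both Cap1 probe sets SRF-null replicate 2, with the largest 3′ minus 5′ Actb value (1.51), was the lowest SRF-null array, and SRF-null replicate 3, with the smallest (0.93), was the highest of all arrays. The SD of the SRF-null arrays was 0.64 and 0.75 on these probe sets. The part of RNA quality in these values was not tested. Within number pairs the dimmer Cap1 probe set was higher each time (0.47, 0.26 and 0.94), although the groups overlapped.

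Tmsb4x encodes thymosin beta-4, which holds monomers in reserve, and it lies on the X chromosome. Its probe set (1415906_at) read 17.74, 17.61 and 17.60 against 17.61, 17.55 and 17.82, a difference of 0.01 (SE 0.13). SRF-null replicate 1, the array without Xist, read the same to 2 decimals as control replicate 2, the array without Y-linked transcripts, and without this pair of arrays the difference was 0.02.

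**Figure D3:**
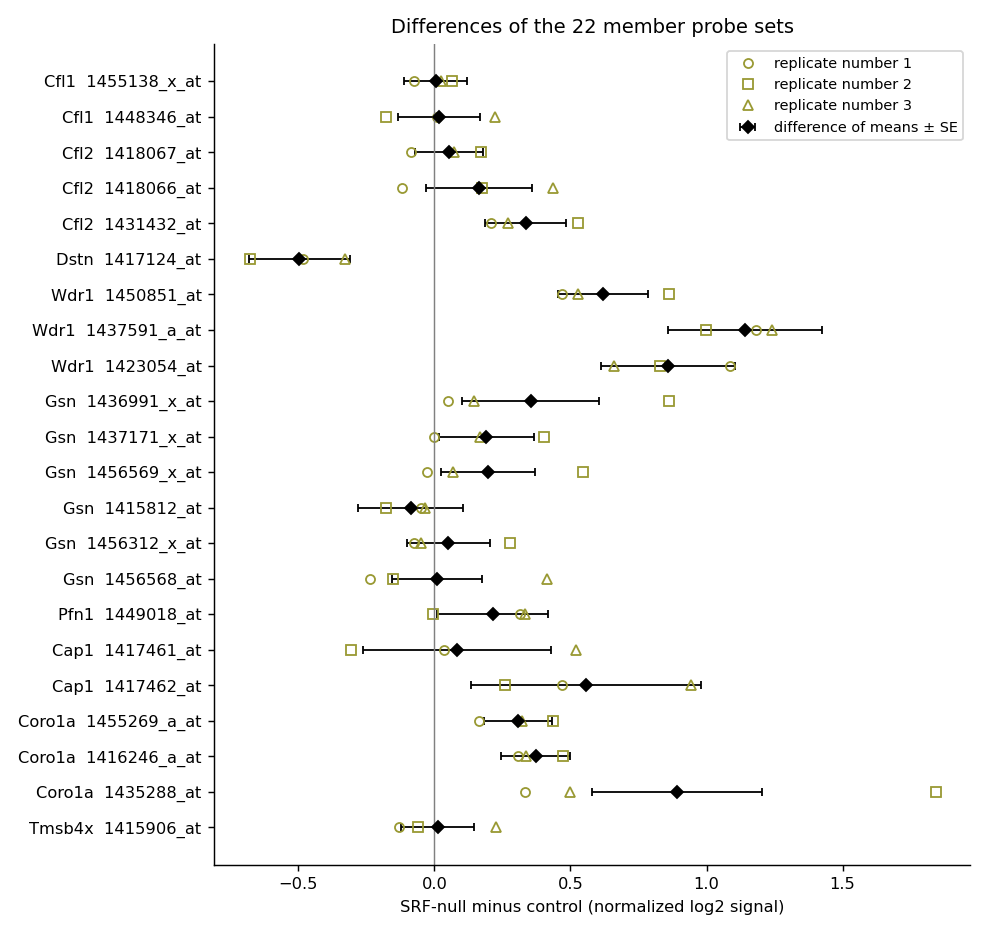
Differences between SRF-null and control signal (horizontal axis, log2) for the 22 member probe sets, as the difference of group means ± SE (black) and as the difference within each replicate number (open symbols). All 3 number pairs go 1 way for 12 probe sets. Among them are the 7 of Wdr1, Coro1a and Dstn, for which groups without overlap allow no other outcome.

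Over the 22 member probe sets the 3 number pairs went the same way in 12, where this held for 28.2% of all probe sets. They were all higher in 10 and all lower in 2, and all higher in 14% of all probe sets. For the 7 member probe sets without overlap this outcome was fixed, since each SRF-null array lay on 1 side of each control array. The members were also picked from this comparison, so nothing is read from these shares. Of these 12, 5 had overlapping groups: Cfl2 1431432_at, Cap1 1417462_at and the Gsn probe sets 1436991_x_at, 1437171_x_at and 1415812_at, the last of them lower. For these 5 each SRF-null array thus differed in 1 direction from the control array of its own number but not from all control arrays. The differences of the 15 overlapping probe sets ranged from −0.09 to 0.56.

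Other genes of filament turnover were taken from a list of the same pathway. Of 61 listed genes 55 had a probe set naming them alone, and the brightest was used for each. By limma 0 of the 55 were called, 23 had a higher and 32 a lower SRF-null mean (51.4% of all genes had a lower one), and the median difference was −0.08 against −0.0069 over all 18193 genes. The list's median was −0.04 without SRF-null replicate 3, and it was −0.0053 once control replicate 2 and SRF-null replicate 1 were left out. The genotypes did not overlap for 8 of the 55 (2 with SRF-null above and 6 below), where 10.6% of all genes had groups that did not overlap (5.16% above and 5.45% below).

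Among regulators and relatives of cofilin, the enzymes that switch cofilin on or off differed by small amounts in both directions. Of 6 measured cofilin kinases and phosphatases 3 were higher and 3 lower (median −0.02). The slingshot phosphatase gene Ssh2, whose product activates cofilin, read 14.76, 14.53 and 14.70 against 15.03, 14.87 and 14.83 (0.25, SE 0.13), and its relative Ssh3 differed by −0.19 (SE 0.13). Pdxp, which encodes the cofilin phosphatase chronophin, read 15.54, 15.53 and 15.38 against 15.13, 15.24 and 15.29 (−0.26, SE 0.13). The arrays did not overlap for these 3 genes of the 6, where this held for 10.6% of all genes. The upstream kinase genes Rock1 (0.11, SE 0.13), Pak2 (−0.13, SE 0.12) and Pak4 (−0.03, SE 0.24) overlapped, as did the relatives with a cofilin-like domain Dbn1 (−0.50, SE 0.44) and Dbnl (−0.14, SE 0.18). Dbn1 lay in the lower part of the scale (4.49 to 6.21). Cotl1, a member of that group that encodes a coactosin-like protein, read 10.69, 11.52 and 12.02 against 11.97, 12.99 and 12.52 (1.08, SE 0.41), with SRF-null replicate 1 below control replicate 3.

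Most other coronin genes had lower means, but only 1 of 6 did not overlap, and a contrast with Coro1a was not tested. Gelsolin relatives showed no common direction. Of 6 other coronin genes 5 were lower, with a median of −0.21, where 51.4% of all genes were lower. Coro2b read 8.56, 8.72 and 8.53 against 8.18, 8.15 and 8.14 (−0.45, SE 0.12) and did not overlap, whereas Coro2a (−0.61, SE 0.33) and Coro6 (−0.27, SE 0.22) did. Coro6 lay near the bottom of the scale (4.86 to 5.73). Coro1b (−0.15, SE 0.15) and Coro1c (0.13, SE 0.12) differed in opposite directions, both with overlap. Of 7 gelsolin relatives 4 were lower (median −0.14), close to the share over all genes. Scin, which encodes a calcium-dependent severing protein, read 8.74, 10.24 and 11.07 against 8.11, 8.54 and 9.75 (−1.22, SE 0.70), a spread within each group of more than 1 unit. Flii differed by −0.20 (SE 0.14) without overlap and Avil by 0.38 (SE 0.29) near the bottom of the scale.

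Paralogs of the monomer-binding members and proteins that cap or elongate filaments showed no common direction. Among monomer-binding paralogs (4 of 6 higher, median 0.07) Pfn4 differed by 0.54 (SE 0.29), Pfn2 by −0.57 (SE 0.52) and the twinfilin gene Twf2 by 0.19 (SE 0.19), each with overlap. Among capping proteins, adducins and tropomodulins (6 of 11 higher, median 0.04) the adducin gene Add3 read 13.36, 13.57 and 13.58 against 13.84, 13.85 and 13.81 (0.33, SE 0.13) without overlap. In the same group Tmod2 (−0.25, SE 0.14) did not overlap and Tmod4 (−0.82, SE 0.30) did, both in the lower part of the scale. Of 12 formins, which build unbranched filaments, 8 were lower (median −0.07). The leukocyte formin gene Fmnl1 read 14.05, 13.79 and 13.99 against 13.50, 13.47 and 13.55 (−0.44, SE 0.13) without overlap, while Diaph3 (0.30, SE 0.20) and Fmn1 (−0.82, SE 0.40) overlapped. Fmn1 lay in the lower part of the scale (4.99 to 6.89).

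**Figure D4:**
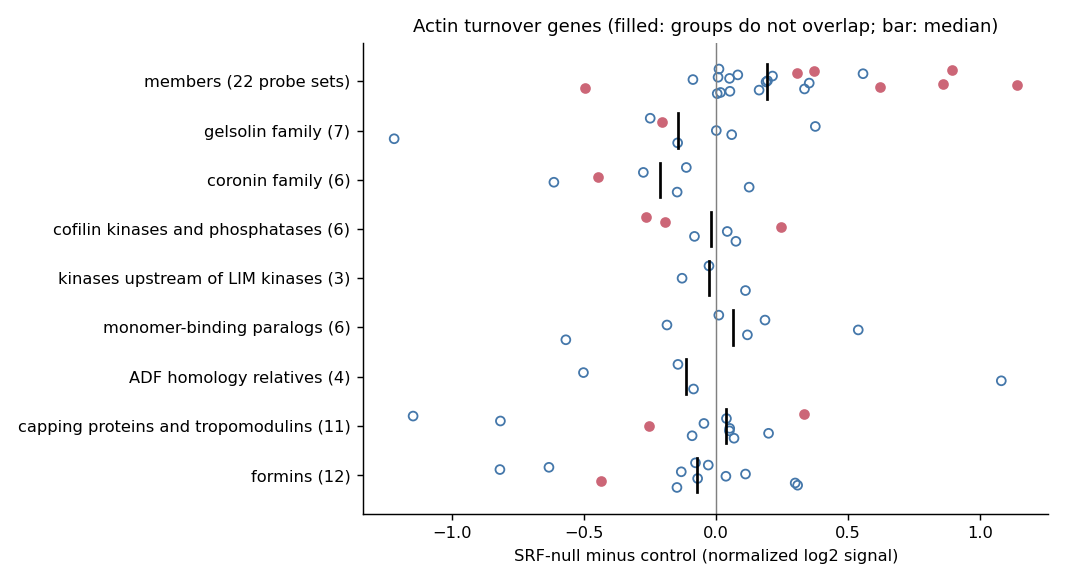
Difference between SRF-null and control signal (log2) for the 22 member probe sets and for 55 other actin turnover genes by group, with 1 point per probe set, filled where the arrays of the genotypes did not overlap, and a bar at the median. The member median is 0.19 over all 22 probe sets and 0.08 with 1 probe set per gene, the basis used for the other groups, whose medians lie between −0.21 and 0.07.

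The differences of Wdr1, Coro1a and Dstn kept their sign under each of the alternatives that gave a value. For the replicate block, the other variance model, the filter on dim probe sets and 1 probe set per gene this was fixed, since these leave a difference unchanged. Leaving out arrays could hardly reverse a sign either, since the groups of these genes did not overlap. Nothing is read from the sign in those fits. The 3 Wdr1 probe sets ranged from 0.47 to 0.71, 0.91 to 1.35 and 0.72 to 1.08, the Coro1a probe sets from 0.26 to 0.37, 0.29 to 0.44 and 0.57 to 1.08, and Dstn from −0.62 to −0.29. Of all 22 probe sets, those of Cfl1, the brighter Cap1 probe set, Tmsb4x, 2 of Cfl2 and 3 of Gsn took both signs.

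**Figure D5:**
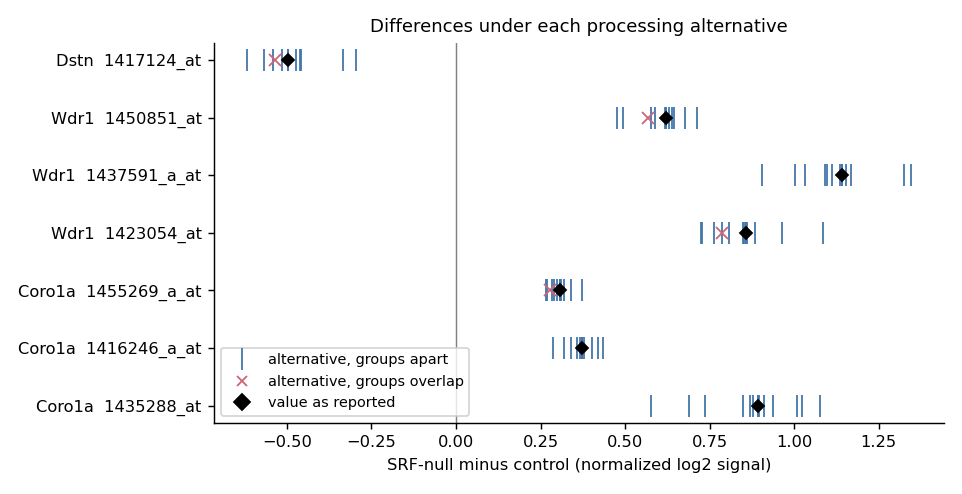
Difference between SRF-null and control signal (log2) for the 7 probe sets whose genotypes did not overlap, as reported (diamond) and under each processing alternative (bars where the groups stay apart, crosses where they overlap). Each probe set keeps its sign, and crosses appear for 4 of the 7 probe sets, each time under median centring. Alternatives other than a change of normalization leave little or no room for an overlap to arise, so their bars carry little information.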

How the data were processed

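Total RNA (30 ng) from 6 pools of sorted LSK cells was amplified, biotin-labelled and hybridised to Affymetrix mouse arrays, per the labels. The authors deposited 1 linear intensity per probe set and array, and the sources used here do not state its summary method, background correction or scaling. Of 45101 probe sets 64 are Affymetrix controls and were left out of the fit, 34945 named 1 gene in the platform annotation, 932 several and 9160 none. Intensities were converted to log2(intensity + 16), and array medians then differed by 0.51 (upper quartiles by 0.08), so arrays were quantile normalized. The offset understates differences of dim probe sets.

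Genotypes were compared over all 45037 probe sets by limma 3.58.1 (lmFit, then eBayes; R 4.3.3; both directions, Benjamini-Hochberg adjustment, threshold 0.05), and the script was tested on simulated data. Samples were grouped by their titles. Equal replicate numbers were taken as pairs, for the pair differences and the replicate block only, because deviations from the group means correlated between them. The correlations were 0.473, 0.210 and 0.427 for numbers 1, 2 and 3, against −0.42 to 0.01 for unequal numbers. All SEs given are from the fit without the block. With the block some were smaller (Cap1 1417462_at, 0.19 instead of 0.42) and others larger (Coro1a 1435288_at, 0.35 instead of 0.31). The labels do not say what a number marks. With 3 arrays per group, precision is limited by their number.

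The members, the gene lists and the tests were chosen with earlier results of these data known. Text names all members, Srf, up to 3 genes of each pathway group with the smallest p, and defining markers. Adgre1, Cd3e and Itgam are among these. The other T, NK and myeloid markers, Coro1b and Coro1c were named after their values were seen. Genes with several probe sets outside the members are given by the brightest. Markers Ly6a and Ly6g, among others, had no probe set naming them alone and are not analysed here, like Fmnl3, Gmfg, Pak1, Rock2, Testk1 and Testk2 of the pathway list. Promoter windows are from RefSeq. Alternatives were other normalizations, offsets of 1 and 64, a filter on dim probe sets, another variance model, the replicate block, 1 probe set per gene, and leaving out arrays. Figures were drawn with matplotlib 3.10.9.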

Additional observations from a re-analysis of the deposited data

How the results depend on the processing

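Over all probe sets 0 were called in 14 of 16 alternatives. Median centring called 1 (Mocs1, adjusted p = 0.0223 by limma), and the fits that leave out 1 array called 0 to 1, the 1 being Ccnb1ip1 without control replicate 2. Both genes were named after their values were seen. The member probe sets without overlap, 7 of 22, fell to 3 under median centring (4.94% of all probe sets then) and were 3 of 9 with 1 probe set per gene, which tests fewer (10.6% of all genes). Leaving out 1 array gave 7 to 12, where fewer arrays also raise the share over all probe sets (15.9% to 24.9%). The largest counts were 12 without control replicate 1 and 11 without SRF-null replicate 2. With the replicate block the calls stayed at 0. In this balanced design the block cannot change a difference or an overlap, so the count of 7 and the members' median of 0.19 were fixed. The median of the other pathway genes ran from −0.087 (control replicate 3 left out) to −0.038 (SRF-null replicate 3 left out) over the fits without 1 array. It was −0.0053 with both control replicate 2 and SRF-null replicate 1 dropped and −0.11 under median centring. Allowing 1 mismatch moved the promoter matches from 0 to 4 of 13 windows. Of 337 member differences under the alternatives 336 moved by less than 1 SD between arrays and 1 by more. Many of the 336 could not move. The replicate block, the other variance model, the filter on dim probe sets and 1 probe set per gene leave each difference as it was. The cause of the shifts under the other alternatives was not tested. The arrays give no detection calls, so values near 4 hold no order.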
